A study of Mus musculus with 6 samples.

Results

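The miRNAs described here are 7 of the annotated products of the miR-126, miR-143 and miR-145a hairpins in a small RNA table of brain cortex. They were chosen by name, as the rows mmu-miR-126a-3p, mmu-miR-126a-5p, mmu-miR-126b-3p, mmu-miR-143-3p, mmu-miR-143-5p, mmu-miR-145a-5p and mmu-miR-145a-3p (without the prefix mmu- for mouse from here on), out of 1182 rows. The 6 libraries came from untreated adult male mice, 3 with the label Fmr1 knockout (KO) and 3 with the label wild type (WT), described as siblings and matched in age. Each library was made from total RNA of the cortex. Fmr1 encodes FMRP, which binds messenger RNAs and restrains their translation at synapses. The labels give neither the strain nor the kind of Fmr1 allele, and a table of small RNA holds no Fmr1 messenger RNA, so the genotype rests on the label alone. The comparison asks whether these vascular miRNAs stand at another level in cortex without Fmr1.

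MicroRNAs (miRNAs) are cut from hairpin precursors, and the arm that is loaded into Argonaute pairs through its seed with target messenger RNAs and represses them. The miR-126 hairpin lies within the gene Egfl7 and is a hallmark of endothelial cells, which line blood vessels. Its 3p arm represses Spred1 and Pik3r2, negative regulators of signalling downstream of VEGF, and its 5p arm represses Dlk1 in endothelium. The miR-143 and miR-145 hairpins form a cluster that marks mural cells, the smooth muscle cells and pericytes around vessels. There miR-145-5p represses Klf4 and Klf5 and favours the contractile state. The cortex is made up mainly of neurons and glia, and which cells gave these reads was not tested.

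The miR-126a hairpin lies on chromosome 2 (GRCm38, the assembly of mm10, 26591357 to 26591429, plus strand). In GENCODE M21 it falls in an intron of 8 of the 19 annotated Egfl7 transcripts, intron 7 in 4 of them, and within an exon of 1 other transcript. The miR-126b hairpin lies at the same place on the minus strand (26591363 to 26591420). Sequences from RefSeq (GRCm38.p6) are shown to make visible how the miR-126b products lie opposite those of miR-126a. In the hairpin the capitals mark the mature 3p arm, and in the mature miRNAs they mark the seed, bases 2 to 8.
miR-126a hairpin: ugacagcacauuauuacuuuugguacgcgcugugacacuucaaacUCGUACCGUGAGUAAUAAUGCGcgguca
miR-126a-3p: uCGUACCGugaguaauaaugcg
miR-126b-3p: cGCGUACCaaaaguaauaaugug
miR-126b-5p: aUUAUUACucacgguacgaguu

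Counted from the 5′ end of the hairpin, miR-126a-3p takes bases 46 to 67. The reverse complement of miR-126b-3p matches bases 7 to 29, on the 5p arm, without a mismatch. That of miR-126b-5p matches bases 43 to 64, so it overlaps miR-126a-3p in 19 bases and is shifted by 3. The seeds of miR-126a-3p and miR-126b-3p share the run CGUACC, displaced by a base. Among the 970 miRNAs of the table with a RefSeq mature sequence, 0 others carried the seed of miR-126a-3p and 0 others that of miR-126b-3p.

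The miR-143 hairpin (chromosome 18, 61649196 to 61649258, minus strand) and the miR-145a hairpin (61647825 to 61647894, minus strand) are separated by 1301 bases. RefSeq places both inside the long noncoding RNA gene Carmn (61645878 to 61665538). In GENCODE M21 Carmn ends 366 bases before the miR-143 hairpin, in the direction of transcription, which leaves both hairpins outside it.

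The rows for miR-126a-5p and miR-126b-3p held almost the same counts. For miR-126a-5p there were 525, 610 and 760 reads in the KO libraries and 673, 713 and 602 in the WT libraries. For miR-126b-3p there were 524, 608 and 760 reads in KO and 673, 713 and 602 in WT. In 4 of the 6 libraries the counts were equal, and the largest difference was 2 reads. The use of strand in counting is not stated in the sources used here, so the products cannot be told apart, and they are a single measurement written in 2 rows. The 3p side of the hairpin was different. There miR-126a-3p had 90408 to 111949 reads in KO and 95047 to 115349 in WT, whereas miR-126b-5p, annotated opposite it with the shift of 3 bases, had 49 to 58 in KO and 59 to 69 in WT. The pair from miR-126 was 1 of 14 pairs in the table with at least 200 reads in all whose counts never differed by more than 3%. For 10 of these pairs the RefSeq positions put the hairpins on opposite strands of a single place. Each of the remaining pairs had a product without a RefSeq sequence, so their arrangement was not determined.

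**Figure D1:**
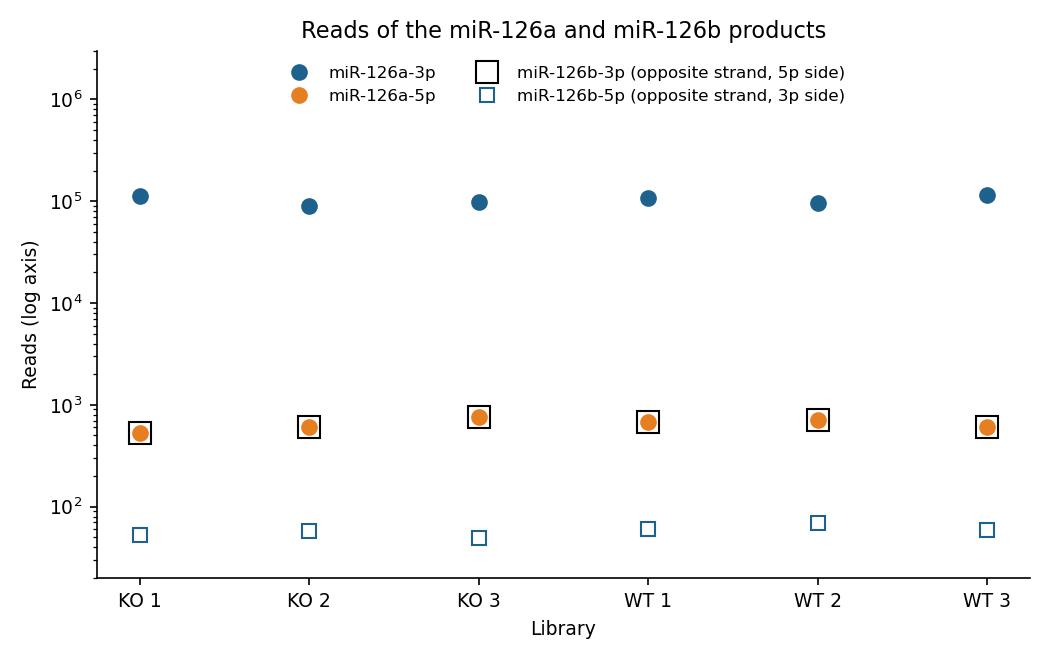
Reads of the 4 miR-126 products in each library (x axis: library, y axis: reads on a log axis). The open squares of miR-126b-3p enclose the points of miR-126a-5p in all 6 libraries, while miR-126b-5p stays at 49 to 69 reads.

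All 7 products had enough reads to be tested, with 541 of 1182 rows passing the filter on low counts. Levels are CPM, counts per 1000000 reads after TMM scaling, which equalises libraries on the bulk of their miRNAs. In each library miR-143-3p stood highest, followed by miR-126a-3p, miR-145a-5p, miR-126a-5p, miR-145a-3p and miR-143-5p. Neighbours in this order did not overlap in any pair of libraries, so the order exceeds the spread. The 6 distinct products together took 4.83%, 3.68% and 4.18% of reads in the KO libraries and 3.78%, 3.62% and 4.11% in the WT libraries. These are levels of reads, not of molecules, and the whole cortex was extracted, so fewer vascular cells and less RNA per cell cannot be told apart.

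None of the products passed the test between KO and WT cortex. By the edgeR quasi-likelihood test with Benjamini-Hochberg adjustment over all 541 miRNAs, 0 of 7 passed the threshold of 0.05, against 0% of all tested miRNAs. Without KO replicate 3, 18 of 560 miRNAs passed (3.21%), again 0 of them among the 7. At an unadjusted p under 0.05 there was 1 of 7, miR-143-5p, against 6.47% of all. Of the 7, 6 had higher and 1 lower values in KO, where all tested miRNAs split 284 and 257. Their median log2 fold change was 0.13, against 0.03 over all, with the shared reads of miR-126a-5p and miR-126b-3p counted as 2. Outside these 7, miR-126b-5p had a log2 fold change of -0.04 (SE 0.25, edgeR adjusted p = 0.97).

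The endothelial guide strand miR-126a-3p had 7640, 7604 and 8000 CPM in the KO libraries, against 7101, 6997 and 7586 CPM in the WT libraries. All KO libraries lay above all WT libraries, if narrowly. This separation was lost with other scalings, since the groups overlapped with RLE size factors and with scaling to total counts. The log2 fold change was 0.10 (SE 0.12, 95% interval -0.18 to 0.38, edgeR adjusted p = 0.86), an interval of 0.88-fold to 1.31-fold for KO over WT. Of all tested miRNAs, 5.18% had every KO library above every WT library and 10.5% had every one below.

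The other arm, miR-126a-5p, had 35.83, 51.3 and 62.64 CPM in KO, against 44.11, 52.49 and 39.59 CPM in WT. KO libraries held both the lowest and the highest value. Its log2 fold change was 0.14 (SE 0.24, edgeR adjusted p = 0.88), and it turned to -0.04 without KO replicate 3. For the same reads under the name miR-126b-3p the log2 fold change was 0.13 (SE 0.24), and -0.04 without that library.

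Among the products of its cluster, miR-143-3p was the most abundant. It reached 36470, 36820 and 30330 CPM in KO, against 29480, 28100 and 34850 CPM in WT, and ranked 4 or 5 among all miRNAs in every library. The groups overlapped, because KO replicate 3 was lower than the highest WT library. Its log2 fold change was 0.16 (SE 0.15, 95% interval -0.18 to 0.50, edgeR adjusted p = 0.79).

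Its partner strand miR-143-5p, which is seldom retained, was the only 1 of the 7 with lower values in KO. It had 40, 41 and 26 reads in the KO libraries and 73, 67 and 63 in the WT libraries, or 2.73, 3.45 and 2.14 CPM in KO, against 4.78, 4.93 and 4.14 CPM in WT. All KO libraries lay below all WT libraries, and this held with TMM, RLE and total-count scaling. The log2 fold change was -0.73 (SE 0.27, 95% interval -1.34 to -0.13, edgeR unadjusted p = 0.0235, adjusted p = 0.70), so the difference did not pass over all miRNAs. The exact 95% counting intervals were 1.95 to 3.72, 2.47 to 4.68 and 1.4 to 3.14 CPM in the KO libraries, against 3.75 to 6.02, 3.82 to 6.26 and 3.18 to 5.3 CPM in the WT libraries. That of KO replicate 3 lay below every WT interval, that of KO replicate 2 overlapped all 3, and that of KO replicate 1 overlapped the interval of WT replicate 3 alone. Non-overlapping groups were seen in 15.7% of all tested miRNAs.

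The contractile-state miRNA miR-145a-5p had 77.12, 79.39 and 90.5 CPM in KO, against 76.81, 68.54 and 89.64 CPM in WT. The groups overlapped, and WT replicate 2 was the lowest of all libraries. The log2 fold change was 0.07 (SE 0.19, 95% interval -0.37 to 0.52, edgeR adjusted p = 0.90), and with a library left out it lay between 0.01, without WT replicate 2, and 0.19, without WT replicate 3. Its other arm miR-145a-3p had 16.04, 14.13 and 8.66 CPM in KO, against 10.49, 12.81 and 9.93 CPM in WT, with KO replicate 3 the lowest of all 6 libraries. For this arm the log2 fold change was 0.23 (SE 0.27, edgeR adjusted p = 0.85), and with a library left out it lay between 0.05, without KO replicate 1, and 0.46, without KO replicate 3 (adjusted p = 0.954 and 0.208). The paralogue miR-145b, from another place on chromosome 18 (69022199 to 69022273), had 1 read in KO replicate 3 and 0 in the other 5 libraries, where a count of 0, taken to allow 3 reads, allows up to 0.252 CPM.

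**Figure D2:**
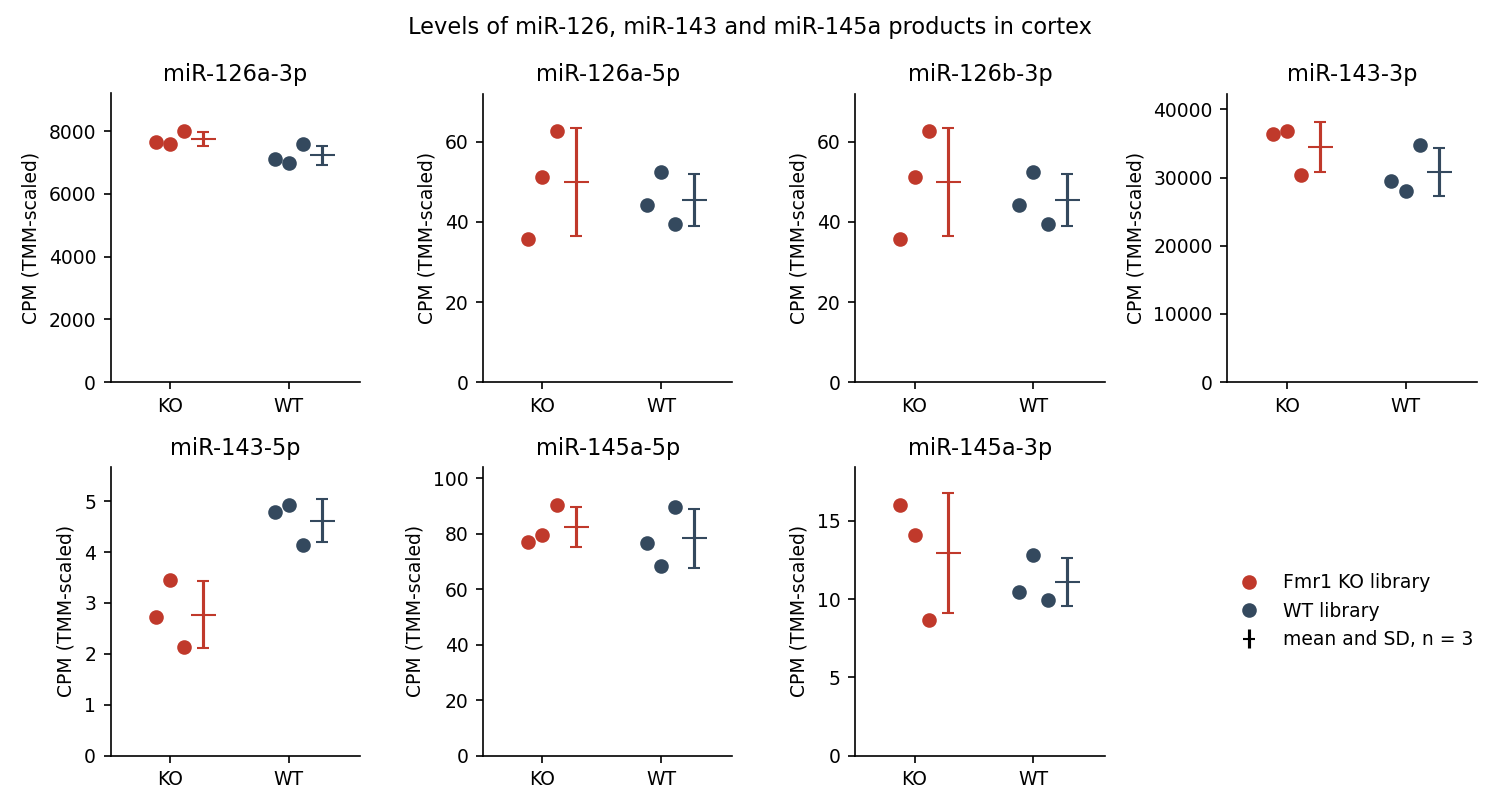
Level of each product in TMM-scaled CPM (y axis, from 0) in the KO and WT libraries, with the mean and SD of 3 libraries beside the points. The groups overlap for 5 of the 7 products, of which miR-126a-5p and miR-126b-3p hold almost the same reads. KO points lie below for miR-143-5p and above for miR-126a-3p, a separation lost with RLE and total-count scaling. Of all tested miRNAs, 15.7% had groups that did not overlap.

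**Figure D3:**
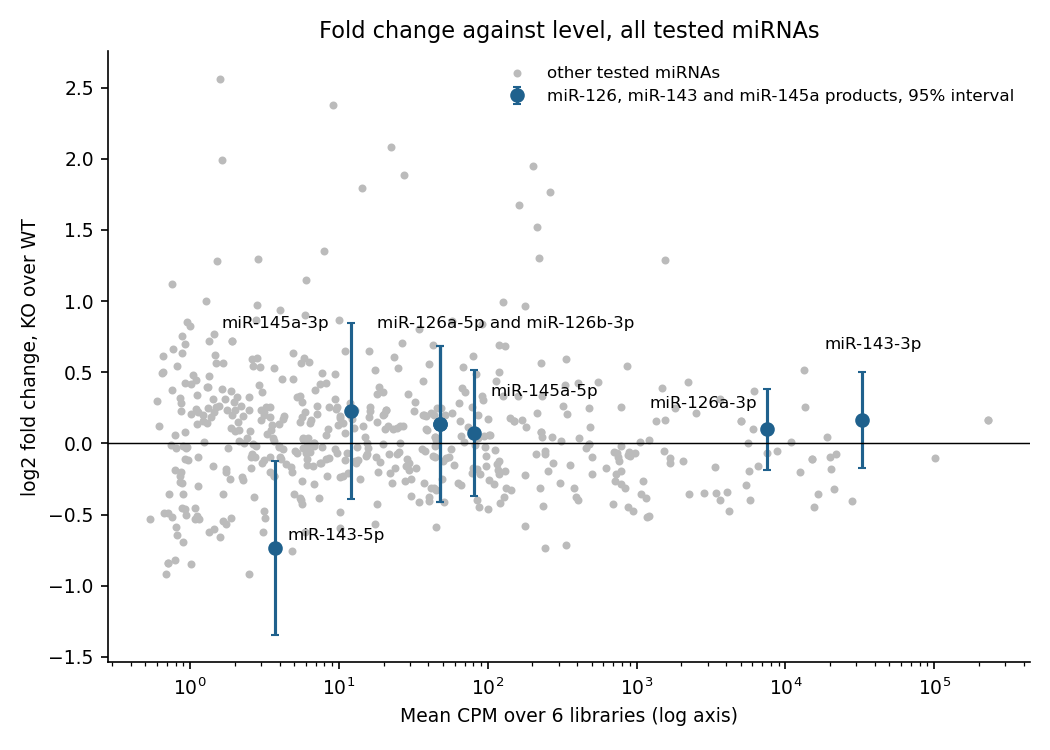
The log2 fold change of KO over WT (y axis) against mean CPM (x axis, log axis) for 541 tested miRNAs, with the 7 products in blue and their 95% intervals. Of the 7 intervals, only that of miR-143-5p, from -1.34 to -0.13, leaves out 0, before adjustment.

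Ratios of reads within a library are free of library scaling. The ratio of miR-143-3p to miR-143-5p was 13360, 10680 and 14150 in KO and 6162, 5697 and 8411 in WT. Every KO library lay above every WT library, a difference of 0.92 log2 units or 1.9-fold. The ratio divides by the 26 to 73 reads of miR-143-5p, so it is not independent of the lower level of that arm given above. The exact two-sided permutation p was 0.1, the smallest that 3 libraries against 3 can give (adjusted p = 0.35 over 7 levels and ratios tested). As a share of all miR-143 reads, the 5p arm made up 0.00748%, 0.00937% and 0.00707% in KO and 0.0162%, 0.0175% and 0.0119% in WT. Of all hairpins with both arms tested, 24 had non-overlapping arm ratios (16.8%), 12 with a higher and 12 with a lower ratio of 3p to 5p in KO. The median size of the difference was 0.27 log2 units, and that of miR-143 ranked 9 among them.

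The other hairpins gave no separation. The miR-126a ratio of 3p to 5p was 213.2, 148.2 and 127.7 in KO and 161, 133.3 and 191.6 in WT (difference -0.01 log2 units, exact permutation p = 1). It was higher in KO when KO replicate 2, KO replicate 3 or WT replicate 3 was left out. For miR-145a the ratio of 5p to 3p was 4.81, 5.62 and 10.46 in KO and 7.33, 5.35 and 9.03 in WT (difference -0.11, exact permutation p = 0.9). The sign of this difference also turned without KO replicate 1, KO replicate 2 or WT replicate 3. The bias between arms thus ranged widely among the hairpins, from 5697 to 14150 reads of the major arm for each read of the minor arm in miR-143 to between 4.81 and 10.46 in miR-145a.

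Although miR-143 and miR-145a lie in a single cluster, their reads differed widely. The ratio of miR-143-3p to miR-145a-5p was 473, 463.7 and 335.1 in KO and 383.8, 410 and 388.8 in WT (difference 0.09 log2 units, exact permutation p = 0.7), and the difference was 0.249 without KO replicate 3 and 0.000555 without KO replicate 1. KO libraries held both extremes, and the SD of the log2 ratio was 0.279 in KO and 0.0505 in WT. The ratio of miR-143-3p to miR-126a-3p was 4.77, 4.84 and 3.79 in KO and 4.15, 4.02 and 4.59 in WT (difference 0.06, exact permutation p = 0.8). KO replicate 3 had the lowest ratio of miR-143-3p to miR-126a-3p of all libraries. The difference was 0.179 without it and 0.00247 without KO replicate 2. Summed over both arms, miR-126a reached 7655 to 8063 CPM in KO, against 7050 to 7626 CPM in WT (exact permutation p = 0.1, adjusted p = 0.35). The 5p arm made up 0.467% to 0.777% of these reads, so the sum nearly repeats miR-126a-3p. Unlike the ratios this sum depends on the scaling, and its exact permutation p was 0.2 with RLE size factors and 0.7 with total-count scaling. The 4 products of miR-143 and miR-145a summed to 30430 to 36910 CPM in KO, against 28190 to 34950 CPM in WT (p = 0.2, exact permutation). Nearly all of this was miR-143-3p, at 30330 to 36820 CPM in KO and 28100 to 34850 CPM in WT.

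**Figure D4:**
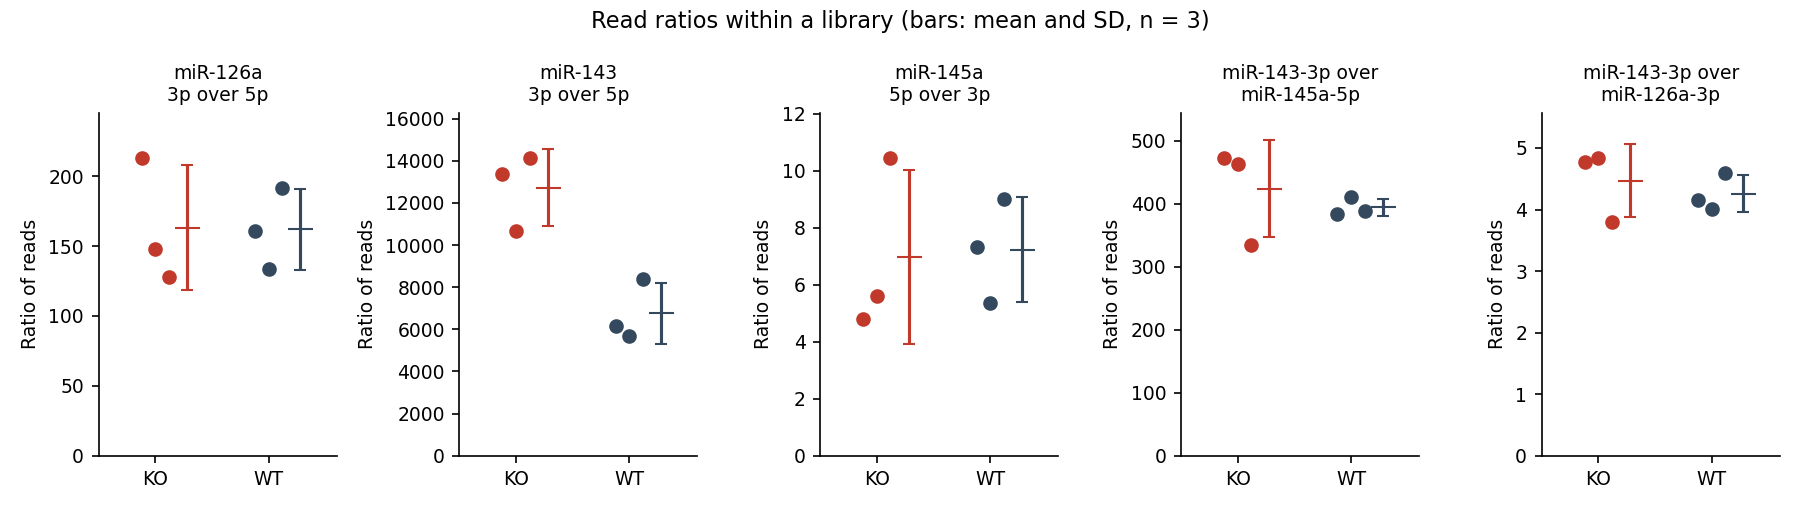
Ratios of reads within each library (y axes, from 0) for 3 arm pairs and 2 pairs of loci, KO left of WT, with the mean and SD of 3 libraries. The miR-143 arm ratio is the only 1 of the 5 in which the groups do not overlap.

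KO libraries were in general more variable than WT libraries. The SD of log2(CPM + 1) was larger in KO for 451 of 541 miRNAs, with medians of 0.338 in KO and 0.127 in WT. On TMM-scaled levels, the major arms miR-126a-3p, miR-143-3p and miR-145a-5p were among the exceptions. For miR-126a-3p the SD was 0.0405 in KO and 0.0621 in WT, and 0.924% of tested miRNAs had a smaller SD in KO. For miR-143-3p it was 0.158 in KO and 0.163 in WT, and for miR-145a-5p 0.122 in KO and 0.192 in WT. The minor arms followed the common pattern, with 0.4 in KO and 0.201 in WT for miR-126a-5p and 0.432 in KO and 0.178 in WT for miR-145a-3p. The exceptions depended on the scaling. As a share of all reads, miR-126a-3p took 0.834%, 0.628% and 0.868% in KO, against 0.731%, 0.719% and 0.733% in WT. The shares of miR-143-3p and miR-145a-5p also ranged more widely in KO than in WT. SDs from 3 libraries are imprecise, and the differences between SDs were not tested.

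**Figure D5:**
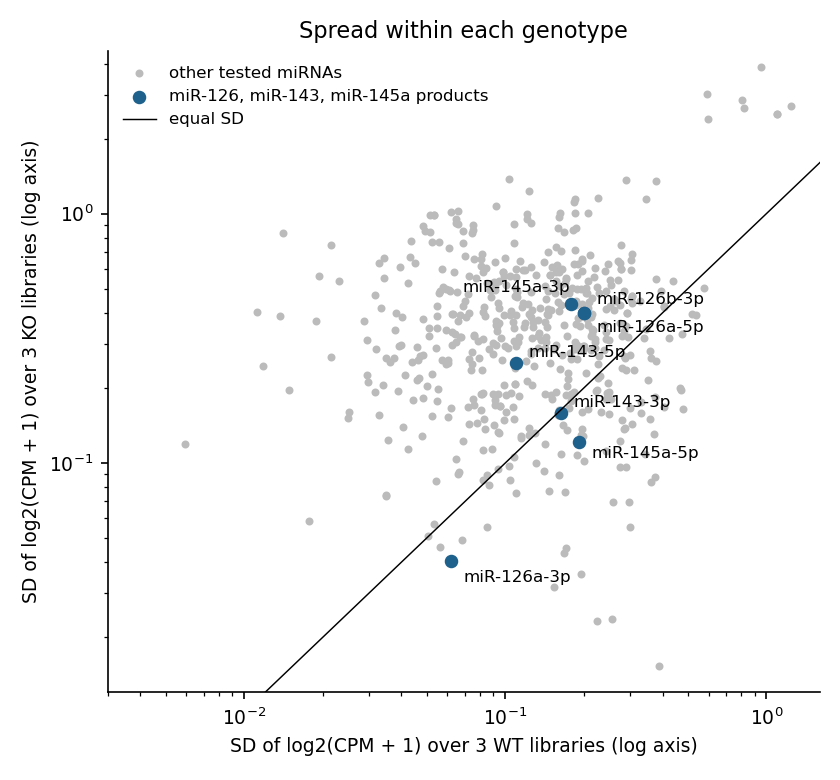
SD of log2(CPM + 1), with TMM-scaled CPM, over the KO libraries (y axis) against that over the WT libraries (x axis), both on log axes, for 541 miRNAs. The line marks equal SD; miR-126a-3p, miR-143-3p and miR-145a-5p lie on or below it, and most miRNAs lie above.

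Other miRNAs studied in vessels gave a mixed picture. Most of them are also made by other cells of the cortex. The endothelial list includes miR-126b-5p, and the mural and mesenchymal list includes miR-145b, which was not tested. Of 16 endothelial miRNAs, all tested, values in KO were higher for 6 and lower for 10, and 0 passed (edgeR), with a median log2 fold change of -0.05. The most abundant were miR-139-5p, at 6307, 5333 and 9037 CPM in KO, against 5345, 5403 and 5302 CPM in WT, and miR-24-3p, at 5129, 5157 and 5621 CPM in KO, against 4810, 4613 and 4812 CPM in WT. Groups did not overlap for 3 of the 16 (18.8%, against 15.7% of all tested miRNAs), miR-24-3p with higher and miR-27a-3p and miR-221-3p with lower values in KO (log2 fold changes -0.46, SE 0.20, and -0.44, SE 0.21; edgeR adjusted p = 0.75 each), the last pair being named after their values were seen. Of 13 mural and mesenchymal miRNAs in the table, 8 were tested, of which 3 had higher and 5 lower values, 0 passed, and 0 had groups apart (median -0.07). In that list miR-21a-5p had 8149, 9428 and 8127 CPM in KO, against 8467, 9313 and 8913 CPM in WT, and miR-22-3p had 1765, 1549 and 2530 CPM in KO, against 1934, 2354 and 2092 CPM in WT.

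Among the 296 other miRNAs with a mean of at least 10 CPM, likeness was taken as Pearson's r of log2(CPM + 1) over the 6 libraries. It describes shared rises and dips of these libraries, which also share their scaling. The miRNAs most like miR-126a-3p were miR-1264-5p (r = 0.904), miR-24-3p (r = 0.894) and miR-3074-5p (r = 0.893), of which the last 2 hold near-identical counts. Those most like miR-143-3p were miR-10b-5p (r = 0.958), miR-873a-3p (r = 0.923) and miR-30e-3p (r = 0.84). For miR-145a-5p they were miR-320-3p (r = 0.834), miR-200c-3p (r = 0.681) and miR-183-5p (r = 0.674). Among the products themselves, miR-145a-5p had r = 0.813 with miR-126a-3p and r = 0.334 with its cluster partner miR-143-3p, and miR-143-3p had r = 0.528 with miR-126a-3p.

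Libraries held 11182888 to 15733876 reads, and neuronal miRNAs were abundant in all of them. The 10 neuronal miRNAs summed to 108900 to 122700 CPM in KO, against 119200 to 132100 CPM in WT, all of them detected, led by miR-128-3p at 90400 to 105800 CPM in KO, against 99650 to 111900 CPM in WT. Cells other than those of the vessel wall can also carry miR-126, among them platelets and blood progenitors. Which of these cells gave the miR-126 reads was not tested, and the levels of blood markers are given here. The 6 erythroid miRNAs in the table summed to 164.8 to 209.7 CPM in KO, against 165.9 to 168 CPM in WT, led by miR-486a-3p and miR-486a-5p, with the near-identical reads of miR-486a-5p and miR-486b-3p counted under both names. In that list miR-451a, named after its values were seen, had 43.27, 36.16 and 80.12 CPM in KO, against 28.84, 39.68 and 30.32 CPM in WT. The edgeR estimate for miR-451a was a log2 fold change of 0.69 (SE 0.31, edgeR adjusted p = 0.75). The 7 leukocyte and platelet miRNAs, led by miR-146a-5p and miR-150-5p, summed to 196.1 to 219.7 CPM in KO, against 171.4 to 181.2 CPM in WT. These sums rest on TMM scaling, and 0 of the 5 tested had groups apart. For miR-146a-5p there were 109.6, 131.7 and 62.64 CPM in KO, against 78.32, 81.5 and 81.81 CPM in WT. The myeloid and platelet miRNA miR-223-3p had 3 to 15 reads per library in KO and 4 to 10 in WT. The sums for markers of non-cortical tissue varied more within KO, where the SD was larger for 451 of 541 tested miRNAs. The 8 choroid plexus and multiciliated miRNAs, led by miR-204-5p and miR-34c-5p, summed to 1022, 1037 and 2119 CPM in KO, against 972.4 to 1046 CPM in WT. The 5 members of the miR-200 family, led by miR-200a-3p and miR-200b-3p, summed to 15.7, 904.2 and 970.1 CPM in KO, against 83.93 to 290 CPM in WT, with miR-141-3p at 0 reads in KO replicate 1. For oligodendrocytes, which are glia of the cortex, the 4 miRNAs summed to 632.1 to 873.8 CPM in KO, against 856.8 to 973.6 CPM in WT. They were led by miR-219a-2-3p and miR-338-5p. The part of these other cells in the levels above was not tested.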

How the data were processed

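The deposited values are raw read counts, 1 whole number per mature miRNA and library, per the file headers. The authors' TPM columns equal the count over the column total, scaled to a sum of 1000000 with no length term (largest deviation 4.9e-10), and served for an alternative alone. The submitters' processing notes list Bowtie, DESeq2 and mm10, with no versions. Trimming, miRBase release, mismatches, multiple matches and strand were not given in the sources used here. Columns were matched to sample titles by their number, and 0 columns belonged to no sample. Replicate numbers follow accession order and only name a library. The labels do not tie each library to an animal, so p-values measure the spread between these libraries. No batch is given. Pairs of WT libraries differed by a chi-square of 47.7 to 59.6 per degree of freedom, and pairs of KO libraries by 590 to 991. Both are more than counting error gives.

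The analysis used R 4.3.3 and edgeR 4.0.16 (filterByExpr, minimum count 10, TMM factors 0.8265 to 1.092, robust quasi-likelihood fit over 541 features). It was also run on simulated counts, drawn with the same spread in both genotypes. That simulation did not cover the wider spread among the KO libraries. Alternatives were run with limma 3.58.1 and DESeq2 1.42.0. Arm and locus ratios were compared by exact permutation of libraries. The 95% intervals of fold changes come from the edgeR fit and include the spread between libraries. Those of read counts are exact binomial (Clopper-Pearson) and cover counting error only, since reads carry no molecular identifiers. Positions come from GENCODE M21 and RefSeq. Members, marker lists and tests were chosen with earlier results of these data known. Named miRNAs are the 7 products, the 2 most abundant of each list and the 3 most alike in pattern to each main strand. Others, such as miR-126b-5p, miR-145b, miR-27a-3p, miR-221-3p, miR-223-3p, miR-141-3p and miR-451a, were named after their values were seen.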

Additional observations from a re-analysis of the deposited data

How the results depend on the processing

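Over 171 repeats of 16 results under other settings, 162 kept their direction and their side of the threshold. Of the 16, the 7 levels and ratios compared by exact permutation cannot fall below p = 0.1. For these 7 only the direction could change. The exceptions among the repeats came from leaving out libraries. With each left out in turn, the number of miRNAs called ranged from 0 to 18, the 18 of 560 (3.21%) arising without KO replicate 3, and 0 of the 7 products were called in any repeat. The log2 fold change ranged from -0.0398 to 0.341 for miR-126a-5p and from -0.0437 to 0.339 for miR-126b-3p, negative without KO replicate 3. The difference in log2 arm ratio ranged from -0.22 to 0.15 for miR-126a and from -0.444 to 0.116 for miR-145a, with 3 changes of sign each, and from 0.812 to 1.09 for miR-143. The cause was not tested. Over all alternatives the log2 fold change of miR-143-5p ranged from -0.965 to -0.567 (smallest adjusted p = 0.255), that of miR-126a-3p from 0.074 to 0.146, that of miR-143-3p from 0.07 to 0.271, that of miR-145a-5p from 0.0117 to 0.19 and that of miR-145a-3p from 0.0525 to 0.462. Without WT replicate 1 or 2 the unadjusted p of miR-143-5p was 0.0719 and 0.0844. Counts at an unadjusted p under 0.05 were 35 in the analysis as reported, 18 with total-count scaling, 19 with limma on log2(TPM + 1), 56 of 1182 without the filter, 40 with DESeq2, 34 with limma-voom, and 14 to 97 with a library left out. The median of all miRNAs moved by less than 0.1 log2 units between scalings. No paired analysis was possible because the labels give no replicate numbers shared by both genotypes. Depth limits miR-143-5p, with 26 to 73 reads per library, more than the other products.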
